A study of Mus musculus with 6 samples.

Results

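The immediate early genes Fos, Fosb, Jun, Junb, Egr1, Ier2, Ier3, Atf3, Dusp1 and Nr4a1 were measured in islets of mice with a pulse of Sox17 in β cells. The 10 genes were taken from a list, each represented by its probe set with a single gene symbol, and all 10 were found among the 19937 genes measured in this way. Each had 1 such probe set, so no choice between probe sets was needed. Of the 10, Egr1 passed the test and was 2.22-fold higher in Sox17-GOF islets, while the other 9 had differences above 0 that did not pass it.

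RNA came from whole islets, in 3 control and 3 Sox17-GOF samples with an Affymetrix Mouse Gene ST array each. Whether a sample pooled several mice is not stated in the sources used here. By the sample labels, control mice carried Ins2-rtTA, a transgene in which the insulin promoter drives a doxycycline-dependent transactivator. Sox17-GOF mice carried Ins2-rtTA and tetO-Sox17, and the drug switches the Sox17 transgene on wherever the insulin promoter is active. All mice were 16 weeks old, from an outbred stock crossed to C57BL/6 for at least 3 generations, so that the background may be mixed, and had received doxycycline for 24 hours, the controls included, and the methods describe the gain-of-function mice as male. The paper gives the genotype of doxycycline-fed controls in its protein stainings as TetO-Sox17 instead, and which of these the control arrays carried rests here on the labels. No array came from mice without doxycycline. Islets of both groups were freed with collagenase, purified on a Ficoll gradient and sedimented before RNA was taken. The methods call the samples of a genotype independent biological triplicates. Values are log2 levels after RMA, in which a difference of 1 is a 2-fold change, and the number of arrays limits their precision. Whole islets were measured, so fewer cells of a type and less RNA per cell cannot be told apart.

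The array medians lay between 6.31 and 6.41, and 1133 of 22961 named probe sets passed an adjusted p of 0.05. Sox17 checked the labels, at 5.50 to 5.72 on control and 6.22 to 6.36 on Sox17-GOF arrays (1.59-fold, adjusted p = 0.00876 from limma). Islet markers were present on every array, with Ins2 and Iapp between 13.02 and 13.52. Acinar markers were also strong, since 5 of the 6 measured (Cel, Cela1, Cpa1, Ctrb1 and Prss2) reached 11.76 or more on every array.

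Immediate early genes are transcribed within minutes of a stimulus, because the factors that switch them on are already present in the cell and only need to be phosphorylated. Growth factor and calcium signals reach them through ERK and other kinases, serum response factor with its ELK partners, and CREB. Their products are mainly transcription factors that act on later genes, together with phosphatases and small proteins that limit the response. In β cells glucose and incretins induce several of them, and enzymatic dissociation of tissue is a well-known inducer too.

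CREB binds the cAMP response element, so the 250 bases before the RefSeq transcription start were searched for its core TGACG, on both strands. RefSeq promoter windows (GRCm38.p6) were used for 8 of the 10 genes, all but Egr1 and Ier2, and 6 of them held the core, namely Fos, Fosb, Junb, Atf3, Dusp1 and Nr4a1. Of all 32851 windows, 17.8% held it. Below are the windows of Fos and Jun, the AP-1 genes with the largest differences, and of Dusp1 and Nr4a1, which differed little between the groups. Dusp1 and Nr4a1 held the most matches of the core when both strands are counted, with those of Dusp1 partly overlapping. They lie at chr12:85473640-85473889 on the plus strand (Fos), chr4:95052223-95052472 on the minus strand (Jun), chr17:26508473-26508722 on the minus strand (Dusp1) and chr15:101266596-101266845 on the plus strand (Nr4a1). Capitals mark the core on either strand, and each sequence ends at the base before the start.
Fos: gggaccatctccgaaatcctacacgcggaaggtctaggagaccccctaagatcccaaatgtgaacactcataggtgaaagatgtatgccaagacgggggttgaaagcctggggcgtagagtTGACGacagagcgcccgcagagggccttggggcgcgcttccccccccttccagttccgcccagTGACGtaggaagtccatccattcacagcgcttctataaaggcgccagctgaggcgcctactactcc
Jun: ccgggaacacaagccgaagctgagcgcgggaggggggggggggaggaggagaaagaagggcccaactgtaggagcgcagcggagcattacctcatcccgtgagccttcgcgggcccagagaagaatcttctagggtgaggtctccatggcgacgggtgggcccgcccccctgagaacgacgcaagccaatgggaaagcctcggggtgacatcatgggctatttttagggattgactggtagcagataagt
Dusp1: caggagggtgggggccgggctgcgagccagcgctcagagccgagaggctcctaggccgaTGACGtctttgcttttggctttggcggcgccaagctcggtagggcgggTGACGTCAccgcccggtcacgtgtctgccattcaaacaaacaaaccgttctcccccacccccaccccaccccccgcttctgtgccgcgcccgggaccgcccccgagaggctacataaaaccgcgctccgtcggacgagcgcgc
Nr4a1: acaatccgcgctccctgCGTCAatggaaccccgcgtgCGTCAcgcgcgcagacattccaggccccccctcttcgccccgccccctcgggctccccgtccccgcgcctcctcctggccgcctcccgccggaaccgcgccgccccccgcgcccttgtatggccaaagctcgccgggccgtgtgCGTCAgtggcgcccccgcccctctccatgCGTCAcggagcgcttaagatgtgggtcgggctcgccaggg

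The core stood at -129 and -66 from the start of Fos, and a TATA box (TATAAA, in 12.4% of all windows) at -33. Dusp1 had 3 cores, of which 2 overlap in the full element TGACGTCA at -143, a motif held by 1.55% of all windows. Nr4a1 had 4 cores, at -233, -213, -69 and -40, and the window of Jun had none. The EGR site GCGNGGGCG was found in Fosb and Nr4a1, against 4.70% of all windows. No window of the 8 held the AP-1 site TGANTCA (6.75% of all windows), the SOX site AACAAT (9.42%) or a CArG box, the site of serum response factor (1.47%). These matches describe letters within this window only. Variants of these patterns and sites further upstream were not searched.

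Egr1 encodes a zinc finger transcription factor that responds to growth factors and, in β cells, to glucose and calcium. Its log2 level was 7.22, 6.85 and 6.54 on the control arrays and 7.70, 7.99 and 8.38 on the Sox17-GOF arrays. All Sox17-GOF arrays lay above all control arrays, with a gap of 0.47 between the nearest ones. The log2 difference was 1.15 with a standard error of 0.21, a 2.22-fold increase with a 95% interval from 1.57 to 3.14 (adjusted p = 0.0264 from limma over all named probe sets). Across all 19937 genes, 5.21% passed this threshold and 2.77% passed it with a higher level in Sox17-GOF islets. The count among the immediate early genes, 1 of 10, rests on Egr1 alone. Permuting the arrays gave an exact two-sided p = 0.10, the smallest that 3 arrays against 3 allow. Leaving out control replicate 2 (adjusted p = 0.104), control replicate 3 (0.0754) or Sox17-GOF replicate 2 (0.0766) ended the call, while the log2 difference stayed between 0.97 and 1.33 whichever array was left out.

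The AP-1 genes encode the basic leucine zipper proteins that pair to form the AP-1 factor. Jun, its main DNA-binding partner and a target of the JNK kinases, measured 7.93, 7.71 and 7.64 in control and 7.95, 8.37 and 8.76 in Sox17-GOF islets. The groups did not overlap, but control replicate 1 and Sox17-GOF replicate 1 stood only 0.02 apart. Its log2 difference of 0.60 (95% interval from 0.15 to 1.05) had an unadjusted p = 0.0152 and an adjusted p = 0.139 from limma, and passed without Sox17-GOF replicate 1 (log2 difference 0.81, adjusted p = 0.0371).
Junb, a Jun relative that restrains some Jun targets, measured 6.85, 6.68 and 6.72 in control and 6.88, 6.92 and 7.10 in Sox17-GOF islets, groups separated by 0.03. The log2 difference was 0.22 (95% interval from 0.002 to 0.43, adjusted p = 0.258 from limma).
Fos, which cannot bind DNA without a Jun partner, had control levels of 6.35, 5.91 and 5.95 and Sox17-GOF levels of 6.11, 6.30 and 7.01. Here the groups overlapped, as control replicate 1 exceeded Sox17-GOF replicates 1 and 2, and only Sox17-GOF replicate 3 stood above all controls. The log2 difference of 0.40 had an interval from -0.14 to 0.94 (adjusted p = 0.416 from limma) and was 0.13 without that array.
Fosb, a Fos relative known for its long-lived splice form in neurons, likewise overlapped, with 6.33, 6.41 and 5.99 in control and 6.34, 6.32 and 6.73 in Sox17-GOF islets. Its log2 difference was 0.22 (95% interval from -0.13 to 0.57, adjusted p = 0.499), and 0.09 without Sox17-GOF replicate 3 or without control replicate 3.

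**Figure D1:**
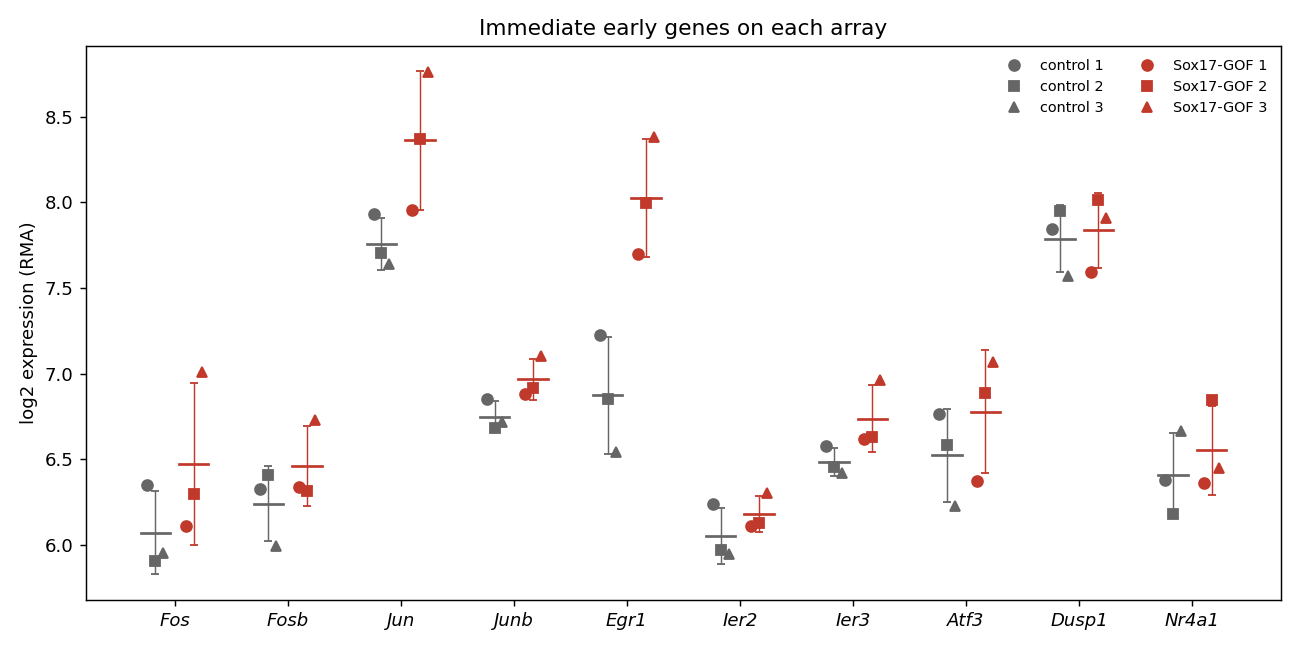
Log2 expression of the 10 immediate early genes on each array, with 3 control arrays in grey and 3 Sox17-GOF arrays in red (circle, square and triangle for replicates 1, 2 and 3), the group mean as a line and the SD as a bar. Egr1 shows a clear gap between the groups, Jun, Junb and Ier3 are barely separated, and the red triangle (Sox17-GOF replicate 3) is the highest point for all genes but Dusp1 and Nr4a1.

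Atf3 encodes a transcription factor of the ATF and CREB family that is induced by many stresses and also lies downstream of ATF4. Its levels were 6.76, 6.58 and 6.23 in control and 6.38, 6.89 and 7.07 in Sox17-GOF islets. Sox17-GOF replicate 1 was below 2 of the 3 controls, and the log2 difference of 0.25 had an interval from -0.21 to 0.72 (adjusted p = 0.567 from limma). It was 0.11 without Sox17-GOF replicate 3 or without control replicate 3, and 0.45 without Sox17-GOF replicate 1. Nr4a1 encodes the orphan nuclear receptor NUR77, an early gene induced by calcium and cAMP. It measured 6.38, 6.18 and 6.67 in control and 6.36, 6.85 and 6.45 in Sox17-GOF islets, with the groups interleaved. The log2 difference was 0.14 (95% interval from -0.24 to 0.53, adjusted p = 0.705), and it was -0.002 without Sox17-GOF replicate 2, 0.03 without control replicate 2, 0.27 without control replicate 3 and 0.24 without Sox17-GOF replicate 1.

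Dusp1 encodes the phosphatase MKP1, which is induced by MAP kinase signals and inactivates p38, JNK and ERK. It had 7.85, 7.95 and 7.57 in control and 7.59, 8.01 and 7.91 in Sox17-GOF islets. This was the smallest difference of the 10 genes (log2 0.05, 95% interval from -0.28 to 0.38, adjusted p = 0.894 from limma). Its sign turned without control replicate 3 (-0.06) or Sox17-GOF replicate 2 (-0.04), and it was 0.17 without Sox17-GOF replicate 1.
The IER genes encode small, rapidly induced proteins. Ier3, which acts on cell survival and ERK signalling, measured 6.58, 6.45 and 6.42 in control and 6.62, 6.63 and 6.96 in Sox17-GOF islets, a separation of 0.04. Its log2 difference was 0.25 (95% interval from -0.01 to 0.51, adjusted p = 0.274). Ier2, a nuclear protein, measured 6.24, 5.97 and 5.95 in control and 6.11, 6.13 and 6.30 in Sox17-GOF islets. These overlapped, with a log2 difference of 0.13 (95% interval from -0.12 to 0.37, adjusted p = 0.578). Without Sox17-GOF replicate 3 it was 0.07 for Ier2 and 0.14 for Ier3, and without control replicate 1 it was 0.22 for Ier2.

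**Figure D2:**
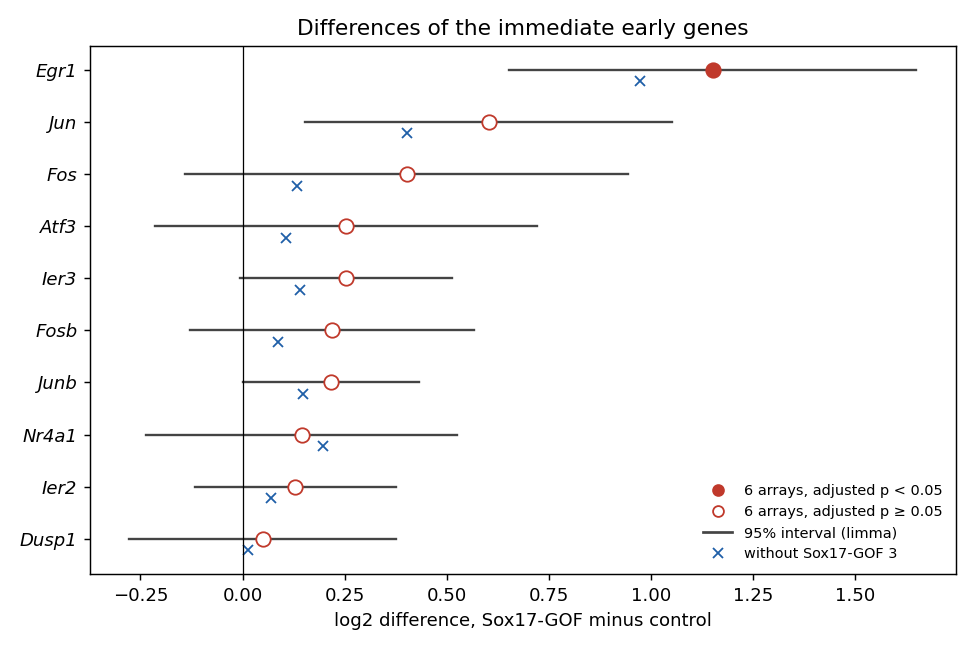
Log2 difference between Sox17-GOF and control islets for each immediate early gene over 6 arrays (circles, filled for genes that passed in limma at an adjusted p under 0.05) with its 95% interval (line), and the value without Sox17-GOF replicate 3 (blue cross). Egr1 is the only filled circle, at 1.15, and for 9 of the 10 genes the cross lies left of the circle.

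Side by side, the 10 differences ran from 0.05 for Dusp1 to 1.15 for Egr1, with a median of 0.24 on the log2 scale against -0.01 over all genes. All 10 were above 0, as were 47.1% of all genes. The genes were read on the same 6 arrays, so these are not 10 independent observations. Without overlap between the groups stood 4 of the 10 (Egr1, Jun, Junb and Ier3), all higher in Sox17-GOF islets, where 11.3% of all genes were separated in this direction. At an unadjusted p under 0.05, 3 of the 10 were higher (Egr1, Jun and Junb), against 8.93% of all genes. Apart from Egr1, the separations of these genes were no wider than 0.04 on the log2 scale, less than the SD of either group.

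Most of the 10 genes had their high values on the same arrays. On Sox17-GOF replicate 3, 8 of the 10 had their highest value of all 6 arrays, a place that 18.0% of all genes had there. Among the controls, replicate 1 was the highest for 7 of the 10 (35.1% of all genes). After each gene was centred on its own mean, the mean of the 10 was -0.02, -0.20 and -0.30 on control arrays and -0.06, 0.17 and 0.40 on Sox17-GOF arrays. Sox17-GOF replicate 1 thus stood below control replicate 1 in this mean, although Egr1 was higher there than on any control array.
Sox17-GOF replicate 3 also stood apart across all named probe sets, at -26.3 on the second principal component (19.8% of the variance) against 17.4 and 13.1 for the other Sox17-GOF replicates. Without it the median difference of the 10 genes fell to 0.14, against -0.01 over all genes. A drop follows for any gene with its highest value on that array, and 9 of the 10 differences became smaller. All 10 stayed above 0, as did 46.4% of all genes. Higher without overlap were 4 of the 10, against 16.6% of all genes. Egr1 still passed (log2 difference 0.97, adjusted p = 0.0460 from limma), and the other 9 did not, with adjusted p from 0.221 for Jun to 0.980 for Dusp1.

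Markers of other cells also varied between the arrays. All 6 measured acinar markers were highest on Sox17-GOF replicate 3, as were 18.0% of all genes. The log2 of the summed acinar signal was 15.56, 15.31 and 15.36 in control and 14.77, 15.45 and 15.71 in Sox17-GOF islets. For 5 duct markers the same sum was between 10.89 and 10.93 in control and was 10.66, 10.87 and 11.15 in Sox17-GOF islets. Krt7, the brightest of the 5 and so the heaviest in this sum, was between 10.54 and 10.62 in control. In Sox17-GOF islets Krt7 was 10.26, 10.36 and 10.08, lowest on replicate 3, where 4 of the 5 duct markers were highest. Krt19, a duct keratin named after its values were seen, reached 9.13 on Sox17-GOF replicate 3 and was between 6.16 and 7.07 on the others. None of these acinar or duct markers passed the test between the groups, 0 of 11 by limma and 0 by the methods' t-test after adjustment, with 2 of the 11 (1 higher and 1 lower, both duct) at an unadjusted p under 0.05 in limma. Stellate and fibroblast markers, 6 measured, had sums of 9.67, 9.94 and 8.99 in control and 9.47, 10.19 and 10.39 in Sox17-GOF islets. Of these, 0 passed in limma or the methods' t-test after adjustment. At an unadjusted p under 0.05 in limma 2 were higher (8.93% of all genes). All 6 differences were above 0 (47.1% of all genes), with a median of 0.40 on the log2 scale. Without overlap stood 2 of the 6, both higher (11.3% of all genes).
The part of these markers in the values of the immediate early genes was not tested. The acinar and duct sums were the lowest of the 6 arrays on Sox17-GOF replicate 1. The mean log2 level of the duct markers was 7.07 there, above control replicates 2 (7.05) and 3 (7.06). On that array Egr1 was 7.70, above the highest control at 7.22. Fos (6.11), Ier2 (6.11), Atf3 (6.38), Dusp1 (7.59) and Nr4a1 (6.36) were below control replicate 1. Jun (7.95), Junb (6.88), Ier3 (6.62) and Fosb (6.34) were slightly above control replicate 1. Among the other marker lists, 3 of 7 β cell markers (Pdx1, Slc2a2 and Ucn3), 1 of 6 endothelial markers (Kdr) and 1 of 8 leukocyte markers (Cd79a) were lower. Of all genes, 5.21% passed in either direction, and of the 22961 named probe sets 533 passed with a lower level. The endothelial list was split, with 2 higher and 2 lower at an unadjusted p under 0.05 and a median log2 difference of 0.15, and Pecam1 (0.37) and Cdh5 (0.27) did not share the sign of Kdr (-0.68). Of the leukocyte markers 2 were lower at an unadjusted p under 0.05 and 0 higher, and of the β cell markers 3 lower and 0 higher. The share of all genes lower at an unadjusted p was not counted. The calls of Pdx1, Kdr and Cd79a each ended without single arrays (adjusted p up to 0.113), the methods' t-test passed none of these 5 calls after adjustment, and 0 of 4 markers of other endocrine cells passed in limma or the methods' t-test (0 at an unadjusted p under 0.05).

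**Figure D3:**
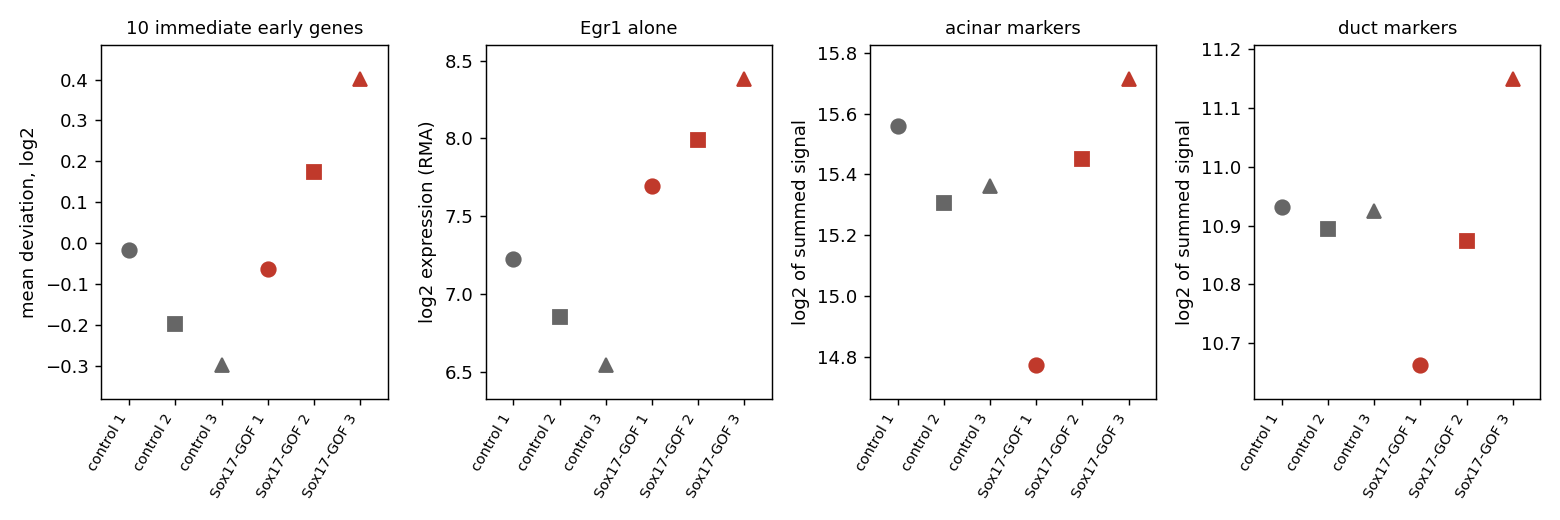
Values on each array, control in grey and Sox17-GOF in red, for the mean deviation of the 10 immediate early genes from their own means (log2), for Egr1 (log2 expression), and for the log2 of the summed linear signal of 6 acinar and 5 duct markers. Sox17-GOF replicate 3 is the highest in all 4 panels. Sox17-GOF replicate 1 is the lowest for both marker sums. It is above all controls for Egr1 and below control replicate 1 in the mean of the 10 genes. Any link between the panels was not tested.

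Relatives of the 10 genes and other early transcription factors, 20 genes in all, had a median difference of 0.07. None passed in limma or in the methods' t-test after adjustment. At an unadjusted p under 0.05 in limma 5 were higher (8.93% of all genes) and 1 was lower.  Egr2, a zinc finger factor close to Egr1, measured 6.36, 6.31 and 6.28 in control and 6.93, 6.84 and 7.66 in Sox17-GOF islets, without overlap. Its log2 difference was 0.83 (standard error 0.20, adjusted p = 0.0644 from limma), and it passed without Sox17-GOF replicate 3 (0.57, adjusted p = 0.0154) and after median centring (0.0498). Egr3 and Egr4 had differences of 0.07 (95% interval from -0.11 to 0.26) and 0.14 (from -0.05 to 0.33), and whether they differ from that of Egr1 was not tested. Of the remaining AP-1 genes, Fosl2 had a log2 difference of 0.27 (adjusted p = 0.234), Fosl1 of 0.04 and Jund of 0.01. The NR4A receptors Nr4a2 and Nr4a3 had 0.25 and 0.06. Klf6, a Krüppel-like factor, had 0.47 (adjusted p = 0.133), and Myc, the growth regulator, had -0.46 (adjusted p = 0.252).

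Early genes that feed back on signalling or act in the cytoplasm mostly did not pass. Among 28 measured genes were 3 that rose, 1 that fell and 24 that did not pass, with a median log2 difference of 0.06. Of all genes, 2.77% rose and 5.21% passed in either direction. Rhob, a small GTPase of endosomes and actin that is induced as an early gene, measured 6.52, 6.55 and 6.60 in control and 7.28, 7.32 and 7.40 in Sox17-GOF islets. Its 1.71-fold increase (log2 difference 0.77, standard error 0.07, adjusted p = 0.00242 from limma) passed whichever array was left out. Rgs2, which shortens Gq signals, had 9.77, 9.97 and 9.96 in control and 10.90, 10.52 and 10.72 in Sox17-GOF islets, a 1.75-fold increase (log2 difference 0.81 with a standard error of 0.11, adjusted p = 0.00953) that passed in every set of 5 arrays. Spry2, a feedback inhibitor of receptor tyrosine kinase signals to ERK, measured 6.78, 6.72 and 7.02 in control and 7.61, 7.28 and 7.44 in Sox17-GOF islets. The log2 difference was 0.61 with a standard error of 0.12 and passed at an adjusted p of 0.0298. It no longer passed when control replicate 1, control replicate 2, Sox17-GOF replicate 1 or Sox17-GOF replicate 3 was dropped (adjusted p from 0.0628 to 0.118).
Ier5, a relative of Ier2, was the member that fell. It measured 7.73, 7.92 and 7.66 in control and 7.17, 7.24 and 7.12 in Sox17-GOF islets, 1.51-fold lower (log2 difference -0.59, standard error 0.09, adjusted p = 0.0134), and 0.0511 without control replicate 2. Dusp6, the ERK phosphatase that ERK itself induces, had 6.76, 6.68 and 7.13 in control and 7.43, 8.15 and 7.54 in Sox17-GOF islets. Its log2 difference of 0.85 (standard error 0.20) had an adjusted p = 0.0589, which was 0.0331 with array weights and 0.0458 when probe sets of the same gene were averaged. Plk3, a stress-responsive kinase, had -0.56 (adjusted p = 0.256) and Gadd45g, a growth arrest gene, -0.42 (adjusted p = 0.133).

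**Figure D4:**
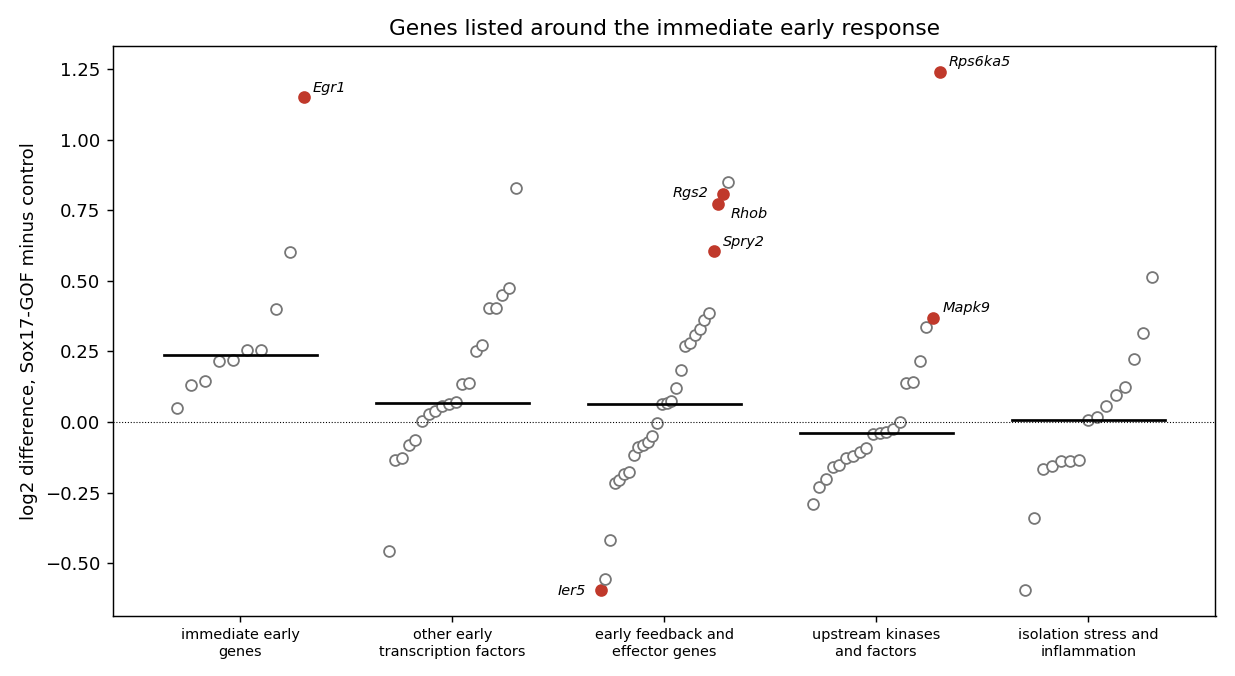
Log2 differences between Sox17-GOF and control islets for the measured genes of 5 lists, each circle a gene, filled red and named if it passed in limma at an adjusted p under 0.05, with the median of the list as a black line. The medians are 0.24 for the immediate early genes and between -0.04 and 0.07 for the other 4 lists.

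Of the kinases and factors upstream of these genes, 20 of 24 listed were measured, of which 2 rose (2.77% of all genes rose), 0 fell and 18 did not pass (median log2 difference -0.04). Rps6ka5 encodes MSK1, a kinase that phosphorylates CREB and histone H3 at early genes downstream of ERK and p38. It measured 6.11, 6.18 and 6.27 in control and 7.83, 7.10 and 7.34 in Sox17-GOF islets. Every Sox17-GOF array was well above every control array, a 2.36-fold increase (log2 difference 1.24, standard error 0.17, adjusted p = 0.0091 from limma) that passed in every set of 5 arrays. Rps6ka5 was highest on Sox17-GOF replicate 1, and whether its level bears on the immediate early genes was not tested. Mapk9, which encodes the Jun kinase JNK2, measured 9.25, 9.28 and 9.22 in control and 9.65, 9.61 and 9.59 in Sox17-GOF islets, 1.29-fold higher (adjusted p = 0.0271). This small and even difference no longer passed when a control array, Sox17-GOF replicate 1 or Sox17-GOF replicate 2 was dropped (adjusted p from 0.0640 to 0.0975). Camk4, a calcium-dependent kinase of CREB, had a log2 difference of 0.34 (adjusted p = 0.0710), Rps6ka3, the ERK-activated kinase RSK2, -0.29 (adjusted p = 0.197), and Elk3, a partner of serum response factor, -0.23 (adjusted p = 0.194). Srf and Creb1 themselves had -0.11 and -0.04.

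Genes of heat shock, oxidative stress and inflammation that islet isolation can induce, 15 measured, had a median difference of 0.01. None passed in limma or in the methods' t-test after adjustment. At an unadjusted p under 0.05 in limma 2 were higher (8.93% of all genes) and 2 were lower. The heat shock gene Hspa1a measured 7.75, 8.10 and 7.95 in control and 7.14, 6.95 and 7.93 in Sox17-GOF islets. Its log2 difference of -0.59 (adjusted p = 0.240) passed without Sox17-GOF replicate 3 (-0.89, adjusted p = 0.0142), on which it stood at the control mean of 7.93. The chemokine gene Ccl2 had a log2 difference of 0.51 (adjusted p = 0.168) and Hmox1, heme oxygenase, -0.34 (adjusted p = 0.145).

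Among 17398 other genes above the 20th percentile of all values (4.63), those whose values followed the mean of the 10 immediate early genes most closely over the 6 arrays were Mex3b, Cat, Lrrc4c, Pramel13 and Clu, with Pearson r from 0.990 to 0.994. None of these 5 passed the test between the groups, with log2 differences from 0.17 (Mex3b) to 0.74 (Lrrc4c). Cat encodes catalase, Mex3b an RNA-binding protein and Clu the secreted chaperone clusterin. In all, 73 of the 17398 (0.420%) had r above 0.95, and 6 points are shared by every gene, so a close match is a description only. With each group centred on its own mean, the closest were Vsig2, Rps19, Pom121l2, Gm7457 and Cat (r from 0.996 to 0.999), and 129 genes exceeded 0.95. Cat was in both sets, with 7.35, 7.20 and 7.07 in control and 7.39, 7.60 and 7.84 in Sox17-GOF islets.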

How the data were processed

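Islet RNA of 3 control and 3 Sox17-GOF samples was hybridised to Affymetrix Mouse Gene ST arrays after amplification. The authors deposited log2 values from RMA, which subtracts background, quantile-normalizes probes and summarizes probe sets. The methods name GeneSpring 10.1 and the submitters' notes Affymetrix Expression Console, so the program behind these values is not settled. They were used as deposited.

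The test between genotypes was lmFit followed by eBayes without a trend (limma 3.58.1, R 4.3.3), with Benjamini-Hochberg adjustment over the 22961 probe sets with a symbol (1321 with several symbols, which name no gene here) and a threshold of 0.05. The 11799 probe sets without a symbol entered as an alternative only. A gene is its brightest single-symbol probe set. Symbols come from GEO's platform annotation. The procedure was tested on simulated arrays.

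The members, gene lists, naming rule and tests were chosen with earlier results of these data known, so no list is independent evidence and no p was adjusted over a list. Besides the 10 members, every gene of 4 lists that passed and the 3 others with the largest difference in each list are named, with family relatives added for their place in a gene family. Alternatives were to leave out each array, to use the methods' t-test, a replicate block, array weights or a variance trend with intensity, to centre arrays on the median or quantile-normalize them again, to test all probe sets or drop the dim ones, and to average the probe sets of each gene. The methods ask for a t-test p under 0.05 with a minimum fold change and state no adjustment. Here that t-test was adjusted by Benjamini-Hochberg and no fold cut-off was used, so its counts are not the paper's.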

Additional observations from a re-analysis of the deposited data

How the results depend on the processing

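Of the 10 immediate early genes, 1 passed (Egr1), as did 1 with a trend, array weights, median centring, quantile normalization, dim probe sets left out and averaged probe sets. The count was 0 with all probe sets tested (adjusted p of Egr1 0.0728), with the replicate block (0.0848) and by the methods' t-test (0.190), where 2, 2 and 1 of the 10 were higher at an unadjusted p under 0.05. It was 0 to 2 when an array was left out. The number of called probe sets, 1133, became 558 with all probe sets and 720 with the replicate block. It was 71 by the methods' t-test after adjustment and without the paper's fold cut-off, and 385 to 1020 when an array was left out. The labels give same-numbered samples a shared replicate number and state no pairing. The deviations of same-numbered samples correlated at 0.05, -0.02 and -0.04. With 3 arrays in each group this cannot show whether such samples were handled together. The median difference of the 10 genes stayed between 0.14 and 0.30. Neither scaling moved the median of all genes by more than 0.02. Rhob passed under all 15 alternatives. The methods' t-test also ended the calls of Rgs2, Rps6ka5, Ier5 and Spry2 (adjusted p = 0.116, 0.132, 0.102 and 0.170) and of the markers Slc2a2, Ucn3, Pdx1, Kdr and Cd79a (0.0906 to 0.143). The block and all probe sets ended those of Spry2 and Mapk9 (up to 0.0761) and of Pdx1 (0.0925 and 0.0779). Median centring ended that of Pdx1 too (0.0540), which passed under 5 of the 15 alternatives and never with an array left out. When an array was left out, the log2 difference of Dusp1 ranged from -0.060 (without control replicate 3) to 0.17, and was -0.037 without Sox17-GOF replicate 2, and that of Nr4a1 ranged from -0.0021 (without Sox17-GOF replicate 2) to 0.27, and neither gene was called. The causes were not tested. All 10 genes lay above 4.63, the 20th percentile of all values, on every array.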
